A study of Mus musculus with 2 samples.

Results

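The 9 genes described here are Mrc1, Chil3 and Retnla, which are used as marks of alternatively activated macrophages, and Cd163, Msr1, Stab1, Folr2, Mertk and Trem2, which encode scavenger and uptake receptors of macrophages. They were taken by name from a table of raw counts for 24421 gene symbols, and all 9 are in it. The RNA came from the whole layer of back skin of wild type C57BL6/J mice, with 1 library of skin held for 5 days under a strain of 33% at the start (stretched skin) and 1 library of skin left without strain and collected on the same day (control skin). The methods describe the mice as 8-week-old females with follicles in telogen, the resting phase of the hair cycle, and a stretching device whose strain was raised each day. The number of mice behind a library is not given in the sources used here. The control library held 14152379 counts and the stretched library 11648655. Levels are given as CPM, the count divided by the total of its library and scaled to 1000000 counts, on which 3 counts correspond to 0.212 and 0.258 CPM. Both libraries were rich in genes of skin, such as the epidermal keratin Krt5 with 61216 and 50601 counts and the collagen Col1a1 with 168121 and 277385. Each condition is represented by a single library, without replicates. Every interval below is an exact 95% interval of counting error, compares these libraries and not the conditions, and carries no p-value.

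Macrophages that meet interleukin-4 or interleukin-13 signal through IL-4R alpha and the transcription factor STAT6, and in the mouse this alternative activation (M2 polarization) is read from genes such as those of the mannose receptor and the secreted proteins Ym1 and RELM alpha. Scavenger receptors bind modified lipoproteins, haemoglobin complexes, matrix fragments and dying cells, and many are carried by macrophages that live in a tissue at rest. The skin also holds other cells that use some of these genes. Adipose tissue can express RELM alpha, lymphatic endothelium carries stabilin 1 and the mannose receptor, and neutrophils and monocytes can express Ym1.

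Chil3, which encodes the chitinase-like protein Ym1, has a near-identical copy, Chil4 (Ym2). Over 1197 aligned coding bases of the GENCODE M21 transcripts, Chil3 and Chil4 had 95.3% identity with 56 mismatches. The longest run without a mismatch was 136 bases, from coding base 987 to 1122 of both genes, which is longer than a read of 76 bases. A read that lies wholly inside it fits both genes equally well. The run is shown because it is the stretch in which the copies cannot be told apart.
Chil3 and Chil4, coding bases 987 to 1122: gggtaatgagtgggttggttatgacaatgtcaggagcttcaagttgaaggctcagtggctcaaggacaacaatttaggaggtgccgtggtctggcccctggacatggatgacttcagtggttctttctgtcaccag

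The 120 bases in which the genes differ most hold 15 mismatches, given in capitals, and a read from here can be told apart.
Chil3, coding bases 835 to 954: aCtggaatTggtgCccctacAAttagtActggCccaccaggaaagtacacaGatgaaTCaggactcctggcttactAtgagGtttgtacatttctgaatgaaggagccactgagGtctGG
Chil4, coding bases 835 to 954: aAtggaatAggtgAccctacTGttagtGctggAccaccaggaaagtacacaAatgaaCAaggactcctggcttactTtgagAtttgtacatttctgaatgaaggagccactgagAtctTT

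Of all 76-base stretches of the Chil3 transcripts, 12.5% were found unchanged in another gene, in Chil4 or in Gm6522. Chil4 is listed at 0 in both libraries. How the counting program treated reads that fit several genes is not given in the sources used here, so a part of the Chil3 reads may have been lost or moved. The other member with a large overlap is Folr2, for which 46.9% of the stretches are also in Gm10602, an antisense gene on the opposite strand that covers 63.1% of its exonic bases. The library kit named in the labels (TruSeq RNA v2) does not mark strand, and Gm10602 is not among the gene symbols of the table, so reads of the antisense gene cannot be told apart from those of Folr2. Stab1 shares 0.331% of its stretches with Nt5dc2, and the remaining 6 members share none.

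By their counting intervals, 7 were higher in stretched skin, none was lower and for Retnla and Mertk the interval included 0, where 18.1% of the 16255 genes with more than 3 counts in a library had an interval above 0 and 33.5% had one below 0. The fold change itself was above 0 for 7 members and for 38.5% of all genes. The median log2 fold change of CPM over the members was 0.94 (medians of the lower and upper ends of their intervals 0.86 and 1.03), and over all 16255 genes it was -0.12. Trem2 and Chil3 were the highest. In bulk RNA, more cells of a type and more RNA per cell cannot be told apart, and this holds for each value below. By the study's rule, in which the product of the FPKM values of both libraries (EV; FPKM is the count per kilobase of exon, scaled to the library total as for CPM, plus 1 here) exceeds 10 and the fold change is at least 2 or at most 0.5, 7 members passed the EV filter and 2 were upregulated, Chil3 and Folr2. Among all 10908 genes that passed the filter, 2.61% were upregulated and 2.43% downregulated, a balance that shifts with the scaling, and no member was downregulated.

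**Figure D1:**
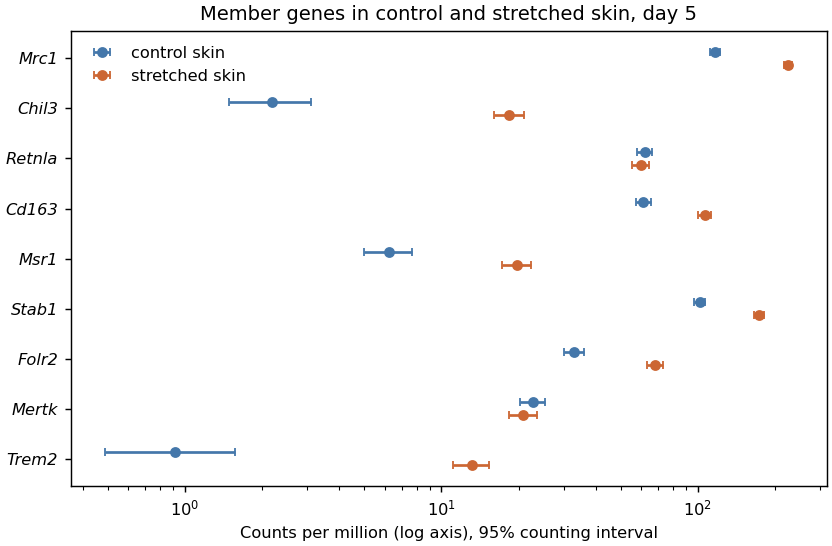
CPM (log axis) of each member in control skin (blue) and stretched skin (orange), 1 library each, with exact 95% counting intervals. The intervals of Retnla and of Mertk overlap between the libraries, and Trem2 is the lowest member in control skin at 0.919 CPM.

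Among the marks of alternative activation, Mrc1 and Chil3 were higher in stretched skin and Retnla differed by less than its counting error. Mrc1 encodes the mannose receptor CD206, the surface protein by which the study gated M2 macrophages. In mm10 the gene spans 14229392 to 14332057 of chromosome 2, and its longest coding transcript has 30 exons. It had 1649 counts in control skin against 2613 in stretched skin, or 117 CPM (interval 111 to 122) against 224 CPM (interval 216 to 233). The log2 fold change was 0.94 (interval 0.86 to 1.03), a 1.93-fold difference that lies just under the 2-fold threshold of the study. With TMM scaling, which adds 0.10 to every log2 fold change, it was 1.05 and Mrc1 became upregulated.

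Chil3 lies on chromosome 3 from 106147554 to 106167564 with 11 exons. It gave 31 counts in control skin against 214 in stretched skin, or 2.19 CPM (interval 1.49 to 3.11) and 18.4 CPM (interval 15.99 to 21.0). It was 8.39-fold higher in stretched skin, with a log2 fold change of 3.07 (interval 2.52 to 3.66), and 48 of the 16255 genes had a larger value. Genes of cells that can also express Chil3 were higher in stretched skin too. Of 7 monocyte genes, 6 had an interval above 0, and the median log2 fold change of the 7 was 2.28, that of F10 with 9 and 36 counts. Their summed level, most of it from Nr4a1 and Ccr2, was 135 CPM in control skin against 231 CPM in stretched skin (0.77 on the log2 scale). Among them Cx3cr1, a chemokine receptor gene, had 19 and 90 counts (2.52) and Nr4a1 was the lowest (0.25). The 5 measured neutrophil genes all had an interval above 0, with a median of 2.51 (2.21 without Retnlg, a relative of Retnla). S100a8 had 57 and 283 counts (2.59, interval 2.18 to 3.03), Csf3r, the receptor for G-CSF, had 50 and 235 (2.51, interval 2.07 to 2.98), and the granulocyte enzyme gene Mpo had 0 and 3. Summed over the neutrophil list, the level was 14.3 CPM in control skin against 70.1 CPM in stretched skin. The count of Chil3 relative to that of S100a8 was 0.544 in control skin against 0.756 in stretched skin, and the interval of the log2 difference included 0 (0.48, interval -0.24 to 1.21). The interval also included 0 relative to Csf3r (0.55, interval -0.18 to 1.31) and to the monocyte gene Ly6c2 (-0.06, interval -1.87 to 1.44), whereas relative to the monocyte gene Plac8 it lay above 0 (0.67, interval 0.03 to 1.34). No ratio was formed to the other neutrophil and monocyte genes. Of these, S100a9 (1.72, interval 1.31 to 2.14), Cxcr2 (1.90, interval 1.24 to 2.62) and Ccr2 (1.24, interval 1.05 to 1.44) had smaller log2 fold changes than Chil3. Retnlg had a larger one, 3.65 with its control count raised to 3. Relative to Adgre1, which encodes the macrophage protein F4/80, Chil3 was 1.51 higher on the log2 scale (interval 0.93 to 2.12). The part of neutrophils and monocytes in the Chil3 value was not tested.

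Retnla encodes RELM alpha (Fizz1), a secreted protein that STAT6 induces in macrophages. It lies on chromosome 16 from 48842551 to 48844461 and has 4 exons. It gave 879 counts in control skin against 698 in stretched skin, or 62.1 CPM (interval 58.1 to 66.4) and 59.9 CPM (interval 55.6 to 64.5). The log2 fold change was -0.05 (interval -0.20 to 0.09), and the interval leaves out a difference of 2-fold in either direction. The sign turned positive under all 4 other scalings, at 0.01 to 0.06, and the value stayed inside its interval. Adipocyte genes were lower in stretched skin. All 7 had an interval below 0, with a median of -0.77, and Adipoq, the adipocyte hormone gene, went from 3035 counts to 1466. Relative to Adipoq, Retnla was 0.72 higher on the log2 scale in stretched skin (interval 0.55 to 0.89), and the part of fat tissue in the Retnla value was not tested.

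Of the 9 members, 8 had a window in the RefSeq promoter table (GRCm38.p6), with 9 windows in all. In the 250 bases before the RefSeq transcription start, the STAT6 letters, TTC and GAA with any 4 bases between them, were found on either strand in the window of Retnla and in no other member's, against 5.85% of all 32851 windows. The C/EBP letters TTNNGCAAT, found in 1.93% of all windows, were likewise in the Retnla window. They start at the base next to the STAT6 letters. GAGGAA, the core of PU.1 sites, was found in the windows of Mrc1, Stab1, Retnla and Trem2 and in 23.3% of all windows. The AP-1 letters TGAGTCA or TGACTCA were in 1 of the 2 Folr2 windows and in 4.46% of all windows. Such a match is a description of the letters and not of binding. The Retnla stretch on the plus strand at chr16:48842409-48842528 (-200 to -81 from the RefSeq start) is shown because it holds the STAT6 letters of the gene that differed little, with the PU.1, STAT6 and C/EBP letters in capitals, the latter 2 adjoining. The PU.1 and C/EBP letters stand there as their reverse complements. For Retnla the RefSeq start lies inside the gene as GENCODE places it, so the searched window runs into the GENCODE gene, and the stretch shown ends before the GENCODE start.
Retnla: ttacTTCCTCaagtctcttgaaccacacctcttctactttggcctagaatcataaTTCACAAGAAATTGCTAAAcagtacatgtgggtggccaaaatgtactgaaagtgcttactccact

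Of the 6 scavenger and uptake receptor genes, 5 were higher in stretched skin with an interval above 0, and the interval of Mertk included 0. Their median log2 fold change was 0.92, and values in brackets after a pair of counts are log2 fold changes of CPM from here on. Cd163, the receptor for haptoglobin-haemoglobin complexes, lies on chromosome 6 from 124304656 to 124330527. It gave 866 counts in control skin against 1238 in stretched skin (log2 fold change 0.80, interval 0.67 to 0.92). Stab1, or stabilin 1, which takes up matrix breakdown products, lies on chromosome 14 from 31139013 to 31168641 with 69 exons. It gave 1435 counts in control skin against 2015 in stretched skin (0.77, interval 0.67 to 0.87). Folr2, the folate receptor beta of tissue macrophages, lies on chromosome 7 from 101839988 to 101857194. It gave 466 counts in control skin against 792 in stretched skin (1.05, interval 0.88 to 1.21). On the scale of FPKM plus 1 that the study's rule was applied to, its log2 fold change was 1.01, just above the threshold of 1. These 3 genes lay close to Mrc1. Measured as a ratio to the Mrc1 count within each library, Cd163 differed by -0.15 on the log2 scale (interval -0.30 to 0.01), Folr2 by 0.10 (interval -0.09 to 0.29) and Stab1 by -0.17 (interval -0.31 to -0.04).

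Lymphatic endothelium carries Stab1 and Mrc1, and 4 of its 6 measured genes had an interval above 0, with a median of 0.68. Flt4, the receptor VEGFR3 of that cell type, had 136 and 216 counts (0.95, interval 0.63 to 1.27) and Prox1 had 22 and 30 (0.73, interval -0.11 to 1.59). Lyve1, which dermal macrophages share, had 667 and 567 (0.05, interval -0.12 to 0.21). Ccl21a is listed at 0 in both libraries. The summed level of the list was 145 CPM in control skin against 226 CPM in stretched skin, of which Pdpn gave 53.3 CPM and 104 CPM. The ratio of Stab1 to Flt4 differed by -0.18 (interval -0.51 to 0.15), and the part of lymphatic vessels in the values of Stab1 and Mrc1 was not tested.

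Msr1 encodes the class A scavenger receptor, which binds modified low density lipoprotein. It lies on chromosome 8 from 39581685 to 39642673 with 10 exons. It gave 88 counts in control skin against 229 in stretched skin, or 6.22 CPM (interval 4.99 to 7.66) and 19.7 CPM (interval 17.2 to 22.4), with a log2 fold change of 1.66 (interval 1.30 to 2.03). It was 3.16-fold higher in stretched skin but was not called by the study's rule, because its EV of 8.12 lies under the threshold, as it also would without the added 1.

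Trem2, a receptor for lipids and apoptotic cells that signals through the adaptor Tyrobp (DAP12), was the member with the largest fold change. It lies on chromosome 17 from 48346401 to 48354147 with 5 exons. It gave 13 counts in control skin against 153 in stretched skin, or 0.919 CPM (interval 0.489 to 1.57) and 13.1 CPM (interval 11.1 to 15.4). The log2 fold change was 3.84 (interval 3.02 to 4.78), a 14.3-fold difference (interval 8.12 to 27.5), and 17 of the 16255 genes had a larger value. Adding 1 CPM to each level brought it to 2.88. Tyrobp had 254 counts in control skin against 626 in stretched skin (1.58, interval 1.37 to 1.80), and Trem2 relative to Tyrobp was 2.26 higher on the log2 scale (interval 1.40 to 3.22). The EV of Trem2 was 4.33, so it was not called either. The EV depends on the length used. The union of all annotated exons is 4946 bases for Trem2 and 6344 for Msr1, against 1056 and 1424 for the transcript with the longest coding part, and with the latter length 4 members were upregulated, Chil3, Folr2, Msr1 and Trem2.

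Mertk encodes a receptor tyrosine kinase through which macrophages engulf apoptotic cells. It lies on chromosome 2 from 128698956 to 128802894 with 19 exons. It gave 321 counts in control skin against 243 in stretched skin, or 22.7 CPM (interval 20.3 to 25.3) and 20.9 CPM (interval 18.3 to 23.7). The log2 fold change of -0.12 (interval -0.37 to 0.12) is that of the median gene, with 49.9% of genes below it. Of the related receptors, Axl had 3671 and 3642 counts (0.27, interval 0.20 to 0.34) and Tyro3 had 755 and 520 (-0.26, interval -0.42 to -0.09). The ligands that bridge these receptors to dying cells were higher in stretched skin, Gas6 with 5149 and 5796 counts (0.45, interval 0.40 to 0.51) and Pros1 with 1309 and 1687 (0.65, interval 0.54 to 0.75).

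**Figure D2:**
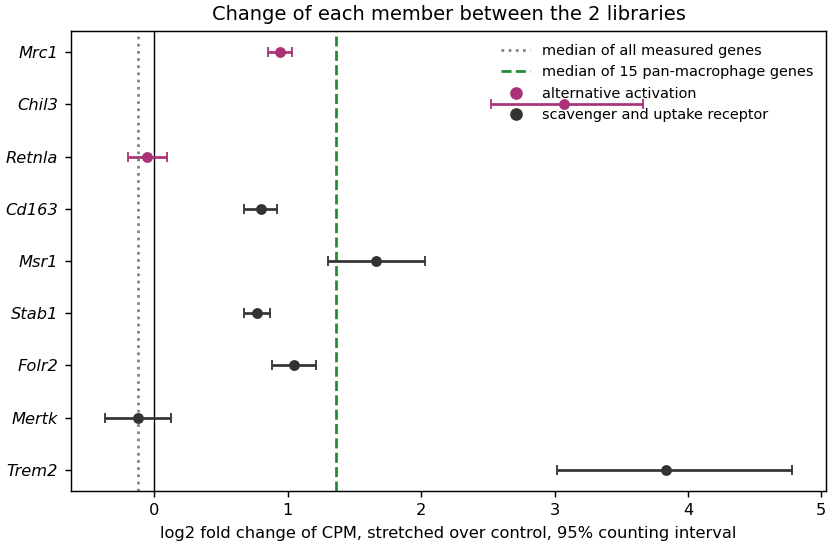
Log2 fold change of CPM, stretched over control skin, of each member with its exact 95% counting interval, 1 library per condition. Trem2 (3.84) and Chil3 (3.07) lie far to the right, the intervals of Retnla (-0.05) and Mertk (-0.12) cross 0, and 6 of the 9 points lie left of the dashed line at the median of 15 pan-macrophage genes (1.36).

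The order of the levels per length depended on the length used. With the union of exons, in control skin Retnla had the highest FPKM (104, interval 96.9 to 111), followed by Folr2 (21.3), Mrc1 (18.3), Cd163 (11.2), Stab1 (9.86), Mertk (5.23), Chil3 (1.34), Msr1 (0.980) and Trem2 (0.186). Chil3 and Msr1 are the neighbours in that order whose intervals overlap. With the same length, in stretched skin the first 5 genes stood in the same order, with Retnla at 100.04 FPKM, Folr2 at 43.98 and Mrc1 at 35.2, and Chil3 had moved up to the sixth place at 11.3. Mertk (4.81), Msr1 (3.10) and Trem2 (2.66) came after it, and the intervals of Msr1 and Trem2 overlapped. With the length of the transcript that has the longest coding part, the first 5 genes kept their order in both libraries, and those after them stood otherwise. In control skin Mertk (5.27) was followed by Msr1 (4.37), Chil3 (1.42) and Trem2 (0.870), whereas in stretched skin Msr1 (13.8), Trem2 (12.4) and Chil3 (11.9) all stood above Mertk (4.85). No intervals were computed for the levels with this length, so the order of close neighbours may lie within counting error.

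Genes that macrophages in general express were higher in stretched skin, and most members were lower when measured against them. Of 15 pan-macrophage genes, none of which is a member, 14 had an interval above 0, and their median log2 fold change was 1.36. They ranged from Maf at -0.33 (1822 and 1192 counts) to Mpeg1 at 2.02 (296 and 989 counts). Adgre1, the gene of the F4/80 protein by which the study gated macrophages, had 472 and 1148 counts (1.56, interval 1.41 to 1.72). The ratio of a member to Adgre1 within a library needs no scaling between libraries. For 6 members the ratio was lower in stretched skin, for 2 it was higher, and for Msr1 the interval included 0 (0.10, interval -0.30 to 0.50). The same ratio was formed for all 16111 genes with more than 3 counts in a library and at least 1 in both. Its interval lay below 0 for 89.3% of them and above 0 for 0.757%, so that a lower ratio was common to most genes. The median of the members was -0.62.

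The ratio of Mrc1 to Adgre1 went from 3.49 in control skin to 2.28 in stretched skin, a log2 difference of -0.62 (interval -0.80 to -0.44). That of Retnla went from 1.86 to 0.608 (-1.61, interval -1.83 to -1.40) and that of Mertk from 0.680 to 0.212 (-1.68, interval -1.98 to -1.39). By contrast, the ratio of Trem2 went from 0.0275 to 0.133 (2.27, interval 1.44 to 3.23). The size of these differences depends on the reference. With Csf1r, the receptor that macrophages need for survival, Mrc1 differed by -0.20 (interval -0.33 to -0.08), Folr2 by -0.10 (interval -0.29 to 0.09) and Msr1 by 0.51 (interval 0.14 to 0.89), and the median of the members was -0.20. Maf, a transcription factor of macrophages that other skin cells also express, was lower in stretched skin, and with it as the reference the median was 1.28. Chil3 and Trem2 were higher relative to each of the 7 references tried, and the other 7 members went both ways.

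**Figure D3:**
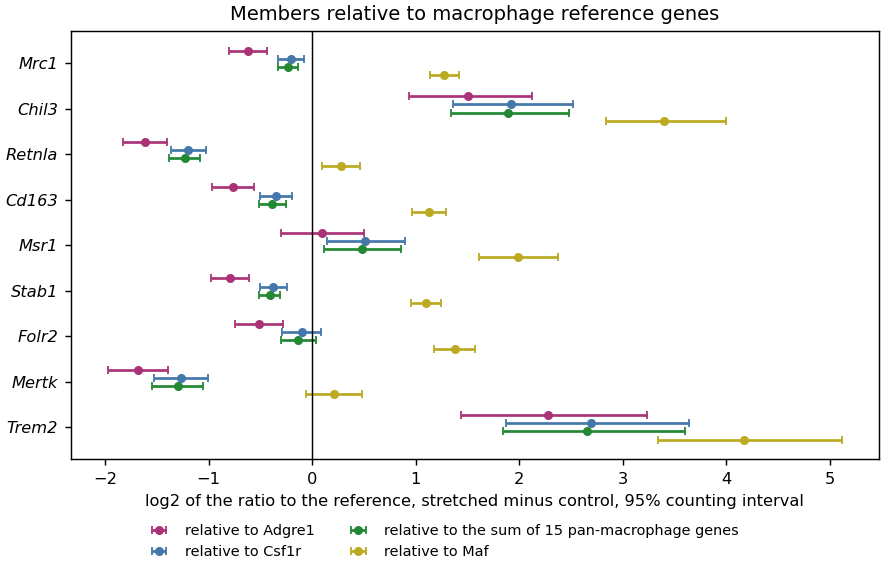
Log2 difference, stretched minus control skin, of the ratio of each member's count to a reference within the same library, with exact 95% counting intervals and 1 library per condition. With Adgre1, Csf1r or the sum of 15 pan-macrophage genes as the reference, Retnla and Mertk lie left of -0.9 and Chil3 and Trem2 right of 0.9, while with Maf all 9 points lie right of 0.

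The study told M1 from M2 macrophages by the surface proteins CD86 and CD206 on gated macrophages, on other days. The values here are RNA of whole skin on day 5, not gated for macrophages, and do not measure that split. Cd86 had 104 counts in control skin against 195 in stretched skin (1.19, interval 0.84 to 1.55), and the ratio of Mrc1 to Cd86 was 15.9 in control skin against 13.4 in stretched skin, a log2 difference whose interval included 0 (-0.24, interval -0.61 to 0.12). Nos2, which encodes the nitric oxide synthase of classically activated macrophages, had 22 and 24 counts (0.41, interval -0.49 to 1.31). Of the 17 measured genes of classical activation, 11 had an interval above 0 and none had one below, with a median of 1.10. The largest among those with enough counts were Il1b, encoding interleukin-1 beta, with 37 and 179 counts (2.56, interval 2.04 to 3.11), Cxcl10 with 17 and 63 (2.17) and Tnf with 17 and 36 (1.36, interval 0.49 to 2.29). Ptgs2 had 169 and 157 (0.17, interval -0.15 to 0.50).

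Other genes of alternative activation went both ways. Of 18 measured, 11 had an interval above 0 and 3 had one below, and the median was 0.48. Clec7a, the beta-glucan receptor dectin-1, had 44 and 154 counts (2.09, interval 1.60 to 2.61), the kinase gene Matk had 16 and 52 (1.98) and the chemokine gene Ccl22 had 65 and 136 (1.35). Pparg, a nuclear receptor of macrophages and adipocytes, had 399 and 218 (-0.59, interval -0.84 to -0.35), the E-cadherin gene Cdh1, also an epidermal gene, had 4721 and 3002 (-0.37), and Egr2 had 769 and 537 (-0.24, interval -0.40 to -0.08). The neighbouring C-type lectin genes Clec10a and Mgl2 differed from each other, with Clec10a at 0.96 (interval 0.83 to 1.10) and Mgl2 at -0.04 (interval -0.25 to 0.18).

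The cytokines that start alternative activation were at the limit of detection. Il4 had 0 counts in control skin against 1 in stretched skin, and Il13 had 0 in both, so that the depth allowed no comparison. Of 11 measured genes of the pathway, 7 had an interval above 0 and 1 had one below, with a median of 0.17 and none called by the study's rule. Il4ra, the receptor chain that interleukin-4 and interleukin-13 share, had 924 and 1432 counts (0.91, interval 0.79 to 1.03), and Il2rg, its partner chain, had 160 and 272 (1.05, interval 0.76 to 1.34). Stat6 had 1668 and 1591 (0.21, interval 0.11 to 0.31), while Cish, a feedback inhibitor of cytokine receptors, had 527 and 326 (-0.41, interval -0.62 to -0.21).

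**Figure D4:**
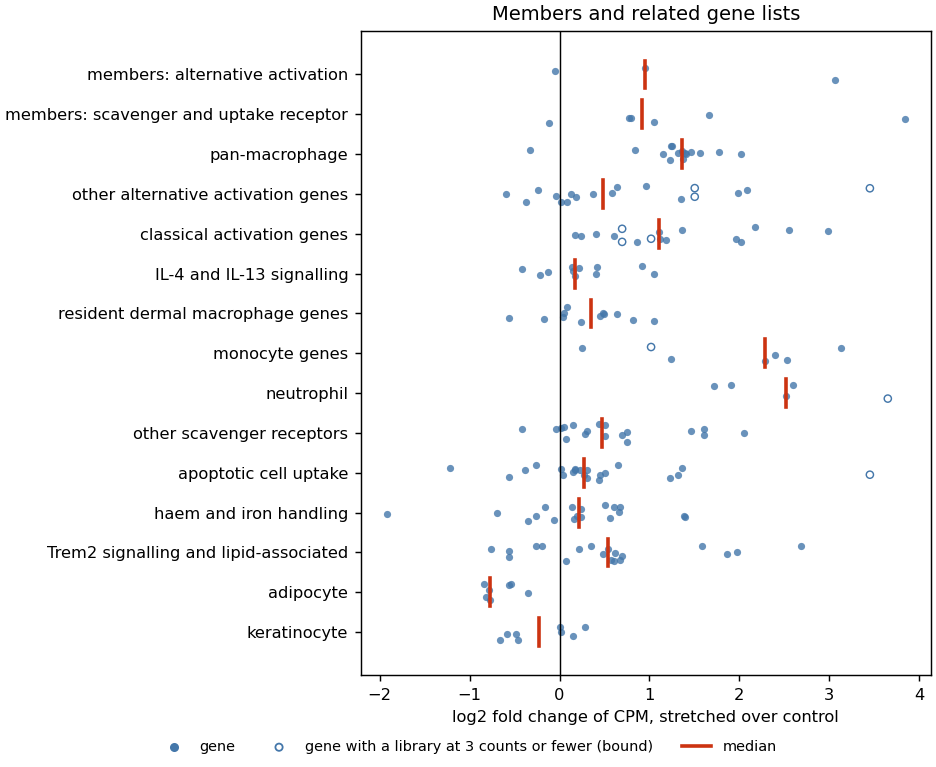
Log2 fold change of CPM, stretched over control skin, of each measured gene of the members and of 13 related lists, with the median of each list as a red bar and open circles for genes with 3 counts or fewer in a library. The medians of the monocyte (2.28) and neutrophil (2.51) lists lie furthest right and that of the adipocyte list (-0.77) furthest left, and both groups of members spread over a wide range.

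Around Cd163, 10 of the 18 genes of haem and iron handling had an interval above 0 and 5 had one below, with a median of 0.22. Hp, encoding the haptoglobin that Cd163 binds in complex with haemoglobin, had 6068 and 7368 counts (0.56, interval 0.51 to 0.61), and Hmox1, encoding the haem oxygenase that breaks haem down, had 948 and 1184 (0.60, interval 0.48 to 0.73). The ferritin genes Fth1 (0.67) and Ftl1 (0.66) lay close to them. The iron exporter gene Slc40a1 (ferroportin) had 1780 counts in control skin against 387 in stretched skin (-1.92, interval -2.08 to -1.76) and was the downregulated gene of the list, while Slc11a1, an iron transporter of phagosomes, had 108 and 234 (1.40, interval 1.06 to 1.74). The transferrin receptor gene Tfrc had 1811 and 918 (-0.70).

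Around Trem2, 14 of 19 genes of its signalling and of lipid-laden macrophages had an interval above 0 and 5 had one below, with a median of 0.54. The secreted protein gene Spp1 (osteopontin) had 50 and 265 counts (2.69, interval 2.25 to 3.15), and the integrin gene Itgax (CD11c) had 47 and 152 (1.97, interval 1.49 to 2.48). Apoe, a lipoprotein that Trem2 binds, had 19399 and 23782 (0.57, interval 0.55 to 0.60). The genes below 0 included Gpnmb, also a gene of pigment cells, with 1830 and 887 counts (-0.76, interval -0.88 to -0.65), and Lpl (-0.56) and Fabp4 (-0.56), which adipocytes also express.

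Of 18 other scavenger receptors measured, 10 had an interval above 0 and 1 had one below, with a median of 0.47. Cd68 (1.47) and Cxcl16 (0.75, interval 0.55 to 0.95) were among the highest, whereas Cd36, also an adipocyte gene, had 4280 and 2634 counts (-0.42, interval -0.49 to -0.35). Genes of apoptotic cell uptake had a median of 0.27, with 14 of 21 intervals above 0 and 2 below. The complement genes C1qa (1.32), C1qb (1.36) and C1qc (1.23), which are also pan-macrophage genes, were among the former, and Tyro3 (-0.26) and Dock1 (-0.38) were the latter. Genes of macrophages that reside in the dermis had a median of 0.34, with 7 of 12 intervals above 0 and 1 below. Pf4 (1.06) was the highest of them and Timd4, an uptake receptor with 61 and 34 counts, the lowest (-0.56, interval -1.21 to 0.07).

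Among the relatives of Chil3, no interval lay above 0 and 1 of 5 measured lay below. Chil1, a chitinase-like relative of Chil3 with 669 of 1115 aligned coding bases identical, had 250 counts in control skin against 89 in stretched skin (-1.21, interval -1.57 to -0.85), and the chitinase gene Chit1 had 1019 and 797 (-0.07, interval -0.21 to 0.06). Retnlg, a relative of Retnla with 84.2% coding identity that neutrophils express, had 1 and 31 counts, a log2 ratio of 5.24 (interval 2.65 to 10.58) on the counts as they stand, and 3.65 with the control count raised to the floor of 3 as in the list medians. It shared no 76-base stretch with another gene. Retn, encoding the adipocyte hormone resistin, had 1504 and 820 (-0.59, interval -0.72 to -0.47), and Retnlb is listed at 0. Mrc2, the relative of Mrc1 on fibroblasts, had 1504 and 2008 counts (0.70, interval 0.60 to 0.80), and Pla2r1 had 181 and 231 (0.63, interval 0.35 to 0.92). All 7 measured relatives of Trem2 had a log2 fold change above 0, and 5 had an interval above 0. Of those with at least 50 counts over both libraries, Cd300lb had 43 and 125 counts (1.82, interval 1.31 to 2.36) and Cd300a had 80 and 165 (1.33, interval 0.93 to 1.73). Of 7 measured relatives of Cd163, which share its cysteine-rich scavenger domain, 4 had an interval above 0 and none had one below, among them Loxl2 with 3187 and 3507 counts (0.42, interval 0.35 to 0.49) and Scara5 with 2604 and 2372 (0.15, interval 0.07 to 0.23). The folate carrier gene Slc46a1 had 151 and 86 (-0.53, interval -0.93 to -0.14).

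The growth factor genes that the study measured in sorted macrophages (Hgf, Igf1, Fgf10, Fgf2, Fgf7, which encodes KGF, and Vegf, taken here as Vegfa) did not move together in whole skin. In the study, Hgf, Igf1 and Fgf10 rose in sorted macrophages after the stretch was released, and Fgf2, Vegf and Kgf did not rise significantly. The libraries here are whole skin on day 5, still under stretch, so the values below are not a like comparison. Igf1 had 1314 and 1258 counts (0.22, interval 0.11 to 0.33) and Hgf had 16 and 21 (0.67, interval -0.33 to 1.71), which the depth could not resolve. Vegfa (-0.63, interval -0.77 to -0.49) and Fgf10 (-0.54, interval -0.93 to -0.17) were lower in stretched skin, Fgf7 had 193 and 175 counts (0.14, interval -0.16 to 0.44) and Fgf2 had 12 and 3. The list also holds 6 factors added here. Over all 12, 4 had an interval above 0 and 2 had one below, with a median of 0.10, and the added Pdgfc (1.03, interval 0.68 to 1.38) and Tgfb1 (0.68, interval 0.49 to 0.87) were the highest of those with at least 50 counts.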

How the data were processed

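RNA-seq of whole-layer skin was done with 1 library per condition. Per the methods, reads were single-end and 76 bases long, and passed a quality filter before TopHat2 placed them on mm10. The deposited file holds raw counts per gene symbol, without normalization. The counter, its annotation and its strand setting are not given in the sources used here. Groups were taken from the treatment labels.

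CPM used the total count of each library. FPKM was computed with the union of exons in GENCODE M21 (GRCm38), to which 23384 symbols were matched by name and 678 by synonym. The study's rule multiplies and divides Cufflinks FPKM values. Here it was applied to the FPKM computed from the counts with 1 added to each, a choice made here, and without the added 1 it named the same upregulated members. For fold changes, counts under 3 were raised to 3. Intervals are Clopper-Pearson for shares and fold changes, and conditional (noncentral hypergeometric) for ratios within a library. They cover counting error only. No test across replicates was possible, and lists are described by counts and medians. The calls and intervals were tested on simulated data.

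The members, lists and pairs were chosen with earlier results of these data known. A further gene of the same rule and a few list genes are not reported here, and the counts over members and lists leave them out. Named were the 9 members, listed partners and relatives, and from each list up to 3 of the highest and lowest genes whose counts over both libraries reach 50. A few other genes (Krt5, F10, Col1a1, Mpo, Flt4, Prox1, Lyve1, Ccl21a, Adipoq, Clec10a, Mgl2, Fth1, Ftl1, Apoe, Fabp4, Ly6c2, Xcr1, Fgf2, Fgf7, Cd68, C1qa, C1qb and C1qc) were named after their values were seen. No gene is named for a likeness of pattern, since with 2 libraries a pattern is 1 difference. Python 3.11.15, scipy 1.17.1, R 4.3.3, edgeR 4.0.16 and DESeq2 1.42.0 were used, the last 2 for scaling factors only.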

Additional observations from a re-analysis of the deposited data

How the results depend on the processing

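The counts of members with an interval above 0 (7) held under all 4 other scalings, which add 0.06 to 0.11 to every log2 fold change. The number of members upregulated, 2 as reported, was 3 with TMM, median of ratios or upper quartile scaling, by the addition of Mrc1. It was 4 without the EV filter, 4 with CPM in place of FPKM and 4 with the length of the transcript that has the longest coding part, by the addition of Msr1 and Trem2 each time, and 1 with EV above 100, which left Folr2. Over all genes, the 285 upregulated and 265 downregulated became 454 and 442 with CPM and 137 and 129 with EV above 100, and 330 and 215 with TMM, 336 and 214 with median of ratios and 329 and 215 with upper quartile scaling. The transcript length and the references Mpeg1 and Maf were chosen after seeing the data. The median log2 fold change of the members (0.94) was 0.80 without Chil3 and Folr2, which share 10% or more of their stretches, 1.05 with TMM or upper quartile scaling and 1.06 with median of ratios. The median relative to Adgre1 (-0.62) was -0.52 with Cd68, -0.20 with Csf1r, -0.24 with the sum of the pan-macrophage list, -0.17 with that sum without Lyz2 and -1.08 with Mpeg1, and turned positive with Maf (1.28), which was lower in stretched skin. Of 45 values of single members, 7 moved beyond their counting interval and none with an interval clear of 0 changed sign. No paired analysis was possible because each condition has 1 library, which also leaves none to leave out. Depth limits Trem2 and Chil3 most, with 13 and 31 counts in control skin.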

Other observations

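Other cell types of the skin that can take part in alternative activation or carry some of the 9 genes were described by lists of their own. All 7 fibroblast genes had an interval above 0, with a median log2 fold change of 0.87. The collagen genes Col1a1 (1.003, interval 0.99 to 1.01) and Col3a1 (0.96, interval 0.95 to 0.97) and the adventitial gene Pi16 (1.04, interval 0.97 to 1.10) were the highest of them, while Dcn (0.06), which encodes decorin, was near 0. Blood endothelial genes had a median of 0.40, with Vwf, encoding von Willebrand factor, at 0.65 (interval 0.49 to 0.81) and the VEGF receptor gene Kdr at -0.37 (interval -0.59 to -0.15). The 8 keratinocyte genes went both ways, with a median of -0.23, from Dsp at -0.67 to Krt14 at 0.28.

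Genes of eosinophils and basophils, T cells and dendritic cells gave few counts. Of 6 mast cell genes, which gave more, 5 had an interval above 0, among them the protease genes Cma1 with 783 and 1136 counts (0.82, interval 0.69 to 0.95) and Mcpt4 with 868 and 1076 (0.59, interval 0.46 to 0.72). Kit, which melanocytes also express, had 470 and 250 (-0.63, interval -0.86 to -0.40). The eosinophil and basophil genes summed to 25 counts in control skin against 48 in stretched skin, and no interval of the 5 measured lay clear of 0. Of 4 measured T cell genes, Cd3e had 27 and 24 counts (0.11, interval -0.75 to 0.96) and Cd4 had 15 and 56 (2.18, interval 1.34 to 3.11). Of 5 Langerhans cell genes, 3 had an interval above 0 and 1 had one below, with a median of 0.15, and of 6 dendritic cell genes, 3 had an interval above 0 and 3 included 0, with a median of 0.67. The Langerhans cell gene Cd207 had 135 and 153 counts (0.46, interval 0.12 to 0.81), the dermal dendritic cell gene Cd209a had 107 and 126 (0.52, interval 0.13 to 0.90), and Cd74, the invariant chain of MHC class II, had 3548 and 6196 (1.09, interval 1.03 to 1.15). Cdh1, also a keratinocyte gene, was at -0.37 (interval -0.44 to -0.31), and the dendritic cell gene Xcr1 had 28 and 17 counts (-0.44, interval -1.40 to 0.48).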
